A study of Mus musculus with 4 samples.

Results

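The Ikaros family consists of 5 zinc-finger transcription factor genes, Ikzf1 (Ikaros), Ikzf2 (Helios), Ikzf3 (Aiolos), Ikzf4 (Eos) and Ikzf5 (Pegasus). The members were taken by symbol from the 33696 genes of both expression matrices, and all 5 were found. Their UMIs (unique molecular identifiers, 1 per captured RNA molecule) were counted in mouse thymocytes sorted as CD4-positive and CCR7-positive. The Cgas KO library came from Cd4Cre Cgasfl/fl mice, in which Cre under the Cd4 promoter acts on floxed Cgas alleles, and the WT library from Cd4Cre mice with no floxed allele named. Both groups therefore carried Cd4Cre. Each genotype was 1 library, and the sources used here give neither how many mice it came from nor their age. Differences between genotypes thus lack a replicate check, and no test was run. The 95% intervals on levels, shares and ratios were computed exactly and hold counting error only.

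Ikaros family proteins bind DNA through N-terminal zinc fingers and pair with each other through C-terminal ones, and Ikaros brings the NuRD chromatin-remodelling complex to its targets. In the thymus, Ikaros is needed for T cell development and restrains Notch target genes. Helios is known from regulatory T cells and from thymocytes that receive strong signals through the T cell receptor, Eos from its work with Foxp3 in regulatory T cells, and Aiolos from maturing lymphocytes. Pegasus is the most divergent member and is widely expressed.

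A barcode was kept with at least 2000 UMIs, at least 500 genes and at most 10% mitochondrial UMIs, which left 14381 Cgas KO and 12929 WT barcodes with medians of 4507 and 4943 UMIs. Each kept barcode went into the first class it met. Foxp3+ barcodes (at least 1 Foxp3 UMI, the regulatory T cell factor) numbered 378 in Cgas KO and 514 in WT. Nr4a1/Egr-high barcodes (Nr4a1, Egr1, Egr2 and Egr3, genes induced by T cell receptor signals, at or above the 90th percentile of their summed share) numbered 1450 and 1225. Rag1+ barcodes (at least 1 UMI of this recombinase gene of immature thymocytes) numbered 465 and 512. Cd8 lineage barcodes (at least 2 Cd8a and Cd8b1 UMIs and no Cd4 UMI) numbered 1223 and 1262. Cd4 only barcodes (at least 1 Cd4 UMI and no Cd8 UMI) numbered 5905 and 5198, and the remaining 4960 and 4218 met no rule. No member of the family defined a class.

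Several features of the libraries bear on these classes. The Cd8 lineage class made up 8.50% of kept barcodes in Cgas KO and 9.76% in WT, although the sort was labelled CD4-positive. A single Foxp3 UMI placed 247 of the 378 Cgas KO and 294 of the 514 WT barcodes in the Foxp3+ class, and 660 kept barcodes lay within 10% of the Nr4a1/Egr threshold, whose nearest barcodes stood at 14.993 (inside) and 14.985 (outside) UMIs per 10000 UMIs. At least 2 productive beta chains were found in 9.58% of kept barcodes in Cgas KO and 9.003% in WT, and 276 barcodes occurred in both libraries. Cgas itself was measured at 2.92 CPM (UMIs per 1000000 UMIs of the class) in Cgas KO and 4.49 CPM in WT. Because a tag at either end of the RNA can lie outside the deleted part of the gene, this is no check of the genotype labels. Erythroid markers summed to 70.3 CPM in kept Cgas KO barcodes and 2.11 CPM in WT, but to at most 4.77 CPM in each of the 5 classes.

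RNA outside cells was estimated in the 67956 Cgas KO and 64771 WT barcodes of 20 to 199 UMIs. There Ikzf1 stood at 1009 CPM in Cgas KO and 745 CPM in WT, Ikzf2 at 468 and 337 CPM, and Ikzf3 at 242 and 221 CPM. Ikzf4 stood at 28.2 CPM in Cgas KO and 37.6 CPM in WT, and Ikzf5 at 24.0 and 26.0 CPM. The Ikzf1 and Ikzf2 values were thus higher in the low-count barcodes of Cgas KO than in those of WT, the Cgas KO value of Ikzf2 was above its level in every class but Foxp3+, and the part of free RNA in the differences below was not tested.

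Ikzf1 was detected across all 5 classes at similar levels, and Ikzf2, Ikzf3 and Ikzf4 were each highest in Foxp3+ barcodes. Ikzf1 was lowest there, at 502 CPM in Cgas KO and 523 CPM in WT, against 669.7 CPM in Cgas KO and 650.2 CPM in WT in Cd4 only barcodes. In Cgas KO its interval overlapped that of Rag1+ barcodes, at 535 CPM. The ratio of Foxp3+ to Cd4 only barcodes for Ikzf1 was 0.749 (0.704 to 0.797) in Cgas KO and 0.805 (0.767 to 0.845) in WT. After thinning each barcode to 2000 UMIs, an Ikzf1 UMI was seen in 61.1% of Foxp3+ barcodes in Cgas KO and 57.4% in WT, against 68.7% of Cd4 only barcodes in both libraries. Without thinning these shares were 83.6% and 83.9% of Foxp3+ barcodes and 91.2% and 92.6% of Cd4 only barcodes.

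**Figure D1:**
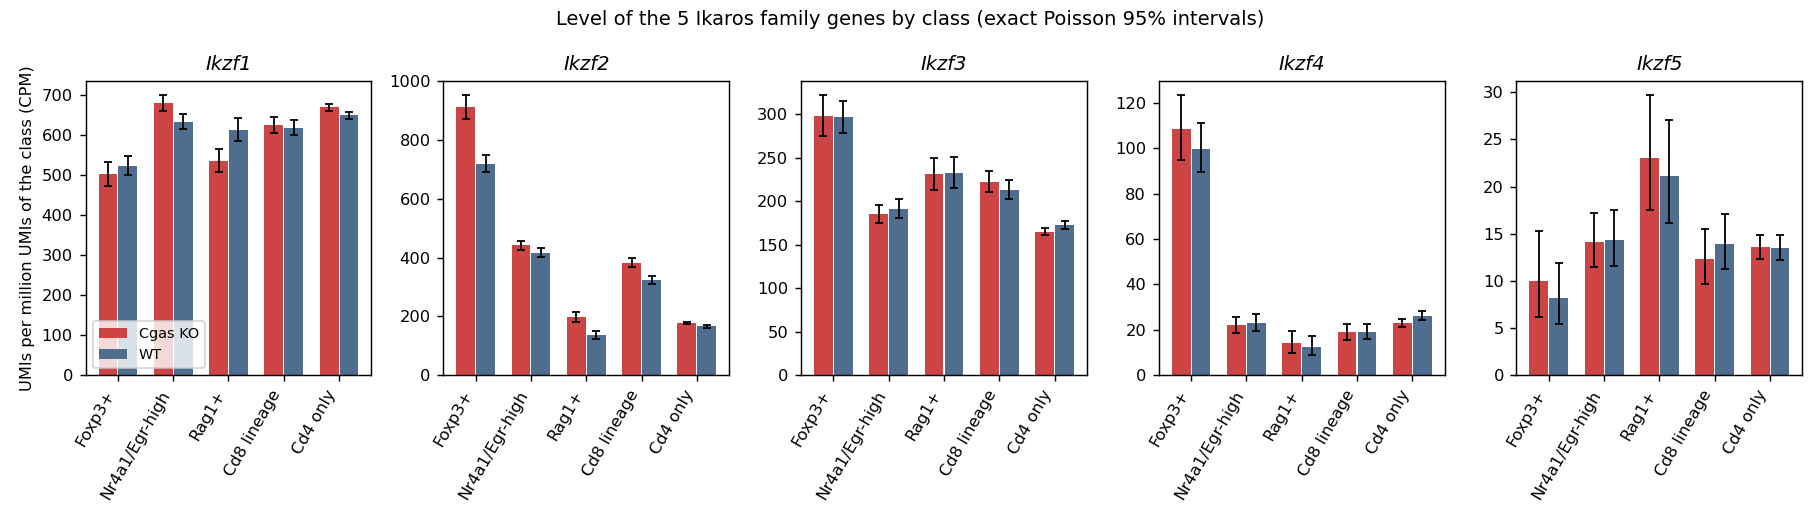
Level of each Ikaros family gene (CPM, vertical axis from 0, with its own scale in each panel) in the 5 classes, with Cgas KO bars left of WT bars and exact Poisson 95% intervals. Ikzf2, Ikzf3 and Ikzf4 stand highest in Foxp3+ barcodes, Ikzf1 lowest there, and Ikzf5 highest in Rag1+ barcodes.

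A member was called higher or lower in a class where both libraries passed 1.5-fold against Cd4 only barcodes in the same direction. In Foxp3+ barcodes 3 of the 5 members were higher and 0 lower, beside 4.18% of all genes tested higher and 3.43% lower. Ikzf2 stood at 911 CPM in Cgas KO Foxp3+ barcodes and 719 CPM in WT ones, against 177 CPM in Cgas KO and 166 CPM in WT Cd4 only barcodes, ratios of 5.14 in Cgas KO and 4.33 in WT. For Ikzf4, the Foxp3+ level was 108 CPM in Cgas KO and 99.8 CPM in WT, against 23.0 and 26.1 CPM in Cd4 only barcodes, ratios of 4.72 and 3.82. The smallest of the 3 differences was that of Ikzf3, at 298 CPM in Cgas KO and 297 CPM in WT, against 165.0 and 172 CPM in Cd4 only barcodes, ratios of 1.81 and 1.72. Each of these levels lay above the counting interval of every other class in both libraries. In the more mature part of the Cd4 only class, described below, Ikzf3 stood at 222 CPM in Cgas KO and 241 CPM in WT.

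The contrast was also visible as the share of barcodes. After thinning, an Ikzf2 UMI was seen in 55.6% of Foxp3+ barcodes in Cgas KO and 53.5% in WT, against 14.5% and 13.5% of Cd4 only barcodes. An Ikzf4 UMI was seen in 19.3% and 19.1% of Foxp3+ barcodes, against 4.91% and 5.56% of Cd4 only barcodes and 1.72% and 1.56% of Rag1+ barcodes, the class with the lowest share, whose median depth was 3825 UMIs in Cgas KO and 3441 in WT, beside 4575 and 5085 in Foxp3+ barcodes. Without thinning, Ikzf2 was seen in 69.8% of Foxp3+ barcodes in Cgas KO and 68.1% in WT, and Ikzf4 in 38.4% and 41.1%. The Foxp3+ class held only 2.63% of kept barcodes in Cgas KO and 3.98% in WT, and it carried 9.76% of the Ikzf2 UMIs of the Cgas KO library and 13.3% of those of WT. Among Cd8 lineage barcodes, which are not a regulatory T cell class, 1.16% in Cgas KO and 1.02% in WT held a Foxp3 UMI when classes were allowed to overlap.

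Ikzf2 and Ikzf4 were higher still where more Foxp3 UMIs were counted. Barcodes with 1 Foxp3 UMI had 796 CPM of Ikzf2 in Cgas KO and 549 CPM in WT. With 2 Foxp3 UMIs the Ikzf2 level was 1151 CPM in Cgas KO and 1010.1 CPM in WT, and with 3 or more it was 1090.3 and 864 CPM. Ikzf4 stood at 83.8 CPM in Cgas KO and 62.9 CPM in WT with 1 Foxp3 UMI, 149 and 139 CPM with 2, and 157 and 147 CPM with 3 or more. In both libraries the step lay between 1 and 2 Foxp3 UMIs, and the intervals at 2 and at 3 or more overlapped, except for Ikzf2 in WT, which was higher at 2.

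Outside Foxp3+ barcodes, Ikzf2 was the member that differed in the Nr4a1/Egr-high and Cd8 lineage classes. In Nr4a1/Egr-high barcodes 1 of the 5 members was higher and 0 lower, beside 2.43% of genes higher and 3.7% lower. This was Ikzf2, at 442 CPM in Cgas KO and 417 CPM in WT, ratios of 2.49 and 2.51 against Cd4 only barcodes. An Ikzf2 UMI was seen after thinning in 29.2% of these barcodes in Cgas KO and 26.0% in WT, and without thinning in 38.3% and 36.4%. In Cd8 lineage barcodes Ikzf2 was again the only member past the threshold, beside 3.93% of genes higher and 6.45% lower. Its level there was 382 CPM in Cgas KO and 324 CPM in WT, ratios of 2.15 and 1.95. The order of the Ikzf2 levels, Foxp3+, then Nr4a1/Egr-high, then Cd8 lineage, was the same in both libraries with no overlap of neighbouring intervals. The last positions differed: Ikzf2 in Rag1+ barcodes overlapped Cd4 only barcodes in Cgas KO and was the lowest in WT.

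Rag1+ barcodes had the lowest Ikzf4 and the highest Ikzf5 levels. Of the 5 members, 1 was higher and 1 lower, beside 11.7% of genes higher and 8.09% lower, so many genes separated this class from Cd4 only barcodes. Ikzf4 stood at 14.1 CPM in Cgas KO and 12.5 CPM in WT, ratios of 0.612 and 0.477, from 36 UMIs in each library, with intervals that overlapped those of Cd8 lineage barcodes. Ikzf5 stood at 23.0 CPM in Cgas KO and 21.1 CPM in WT, from 59 and 61 UMIs, ratios of 1.70 (1.27 to 2.24) and 1.56 (1.18 to 2.05). With edgeR's TMM factors, which moved all genes of this comparison by 0.174 log2 units in Cgas KO and 0.192 in WT, the Ikzf5 ratios were 1.51 and 1.37, and the WT ratio no longer passed 1.5-fold. Trdc, a marker of gamma-delta T cells, stood at 43.7 CPM in Cgas KO and 31.5 CPM in WT in Rag1+ barcodes and at no more than 8.02 CPM in the other 4 classes, and its part in these levels was not tested. Pstk overlaps Ikzf5 in the RefSeq annotation of GRCm38.p6, and predicted or noncoding genes overlap Ikzf1 (Gm11999), Ikzf3 (Gm25106) and Ikzf4 (Gm26876 and Gm51824). Whether the counting used strand is not stated in the sources, so reads of these pairs may be mixed.

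Between genotypes the members differed little, and the 2 differences past the threshold in genes with enough UMIs concerned Ikzf2. Of the 25 ratios of Cgas KO to WT (5 members in 5 classes), 23 rested on at least 100 UMIs in both libraries together, the minimum for the shares of all genes, and of these 2 were at least 1.2-fold higher and 0 at least 1.2-fold lower. Both were Ikzf2, in Foxp3+ barcodes, where 9.76% of genes were called higher and 10.9% lower, and in Rag1+ barcodes, where 13.1% were called higher and 14.7% lower. The counting intervals of 15 of the 25 ratios included 1, a count that was not made for all genes. The 25 ratios ran between 0.871, for Ikzf1 in Rag1+ barcodes, and 1.45, for Ikzf2 in Rag1+ barcodes. Over all kept barcodes, where 6.07% of genes were called higher and 5.83% lower, none of the 5 members passed the threshold. Ikzf1 stood there at 654 CPM in Cgas KO and 637 CPM in WT, a ratio of 1.03, and Ikzf2 at 259 and 246 CPM, a ratio of 1.05. Ikzf3 stood at 181 CPM in Cgas KO and 192 CPM in WT, a ratio of 0.944, Ikzf4 at 25.3 and 27.9 CPM, a ratio of 0.906, and Ikzf5 at 14.4 and 13.8 CPM, a ratio of 1.04.

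**Figure D2:**
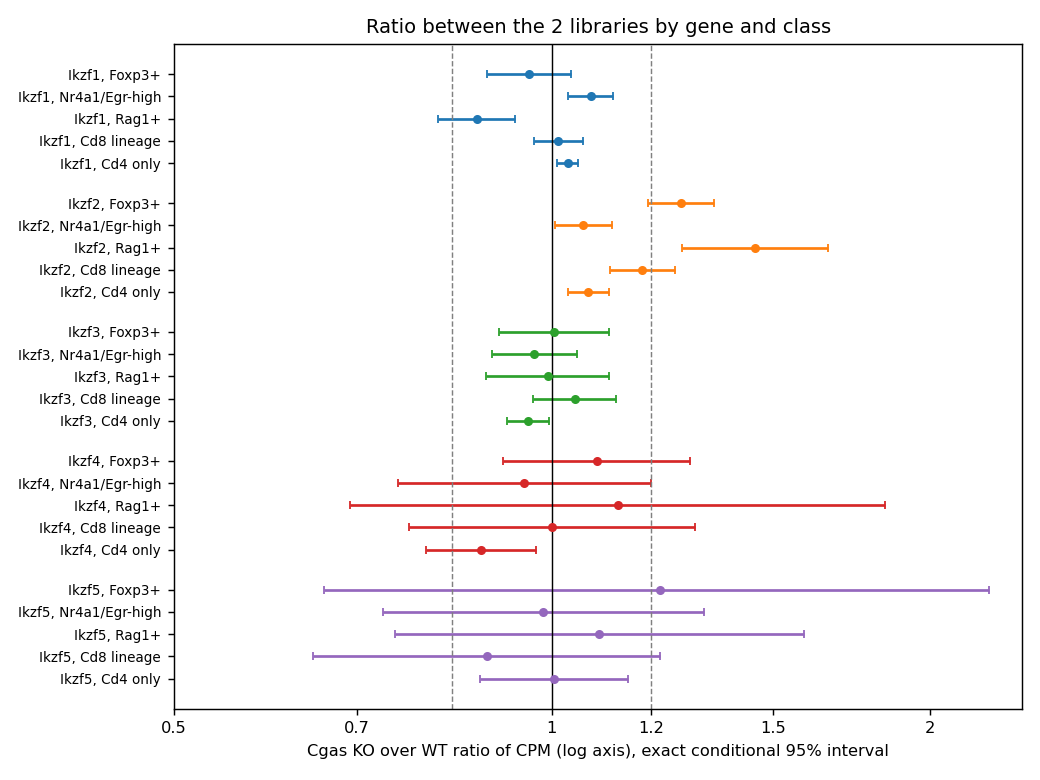
Ratio of the Cgas KO to the WT level (log axis) of each member in each class, with exact conditional 95% intervals. The solid line marks 1 and the dashed lines 1.2-fold in either direction. Ikzf2 in Foxp3+ (1.27) and Rag1+ barcodes (1.45) lie past the line, and the interval of Ikzf5 in Foxp3+ barcodes spans both lines.

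Ikzf2 in Foxp3+ barcodes had 1909 UMIs in Cgas KO and 2450 in WT, and its ratio of levels was 1.27 (1.19 to 1.35). The share of Foxp3+ barcodes with an Ikzf2 UMI differed less, 55.6% in Cgas KO (50.4% to 60.6%) and 53.5% in WT (49.1% to 57.9%), with overlapping intervals. The 10 barcodes with the most Ikzf2 UMIs held 17.5% of them in Cgas KO and 12.3% in WT, and without these barcodes the ratio was 1.19, below the threshold. Dendritic and myeloid markers summed to 142 CPM in Cgas KO Foxp3+ barcodes and 304 CPM in WT ones, with Siglech at 0 in both and Itgax at 0 in Cgas KO. Without barcodes holding at least 5 UMIs of other-cell markers the ratio was 1.27. After thinning it was 1.197, also below the threshold. Before thinning, Foxp3+ barcodes with an Ikzf2 UMI held a mean of 7.23 of them in Cgas KO and 7.0 in WT. These means are not at equal depth, since the median Foxp3+ barcode held 4575 UMIs in Cgas KO and 5085 in WT. The ratio of summed levels by itself does not tell more cells with the RNA from more RNA per cell.

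In Rag1+ barcodes Ikzf2 had 504 UMIs in Cgas KO and 392 in WT, 197 and 136 CPM. Shares with a UMI were 19.1% in Cgas KO (15.7% to 23.0%) and 16.6% in WT (13.5% to 20.1%), with overlapping intervals, and 30.5% and 27.1% without thinning. The 10 barcodes with the most Ikzf2 UMIs held 35.3% of them in Cgas KO and 38.8% in WT, and without these barcodes the ratio was 1.55. Barcodes with at least 2 beta chains made up 16.6% of the class in Cgas KO and 14.3% in WT, and the ratio was 1.21 without them, against 1.45 (1.27 to 1.66) with them. Dendritic and myeloid markers summed to 173 CPM in Cgas KO and 202 CPM in WT, and without barcodes rich in other-cell markers the ratio was 1.38. The direction was the same in each of the alternatives run, while the size was not. Genes outside the family also differed between genotypes in this class. The ratio of Tnfrsf9 was 1.86 (1.35 to 2.59), that of Nr4a1 1.53 (1.35 to 1.73) and that of Itm2a 0.710 (0.650 to 0.775).

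After thinning, Cd8 lineage barcodes were the only one of the 5 classes in which the intervals of the Ikzf2 share did not overlap between genotypes. How many of all genes show such a gap was not counted for any class, with or without thinning, so it may be ordinary. The thinned Ikzf2 share was 31.0% in Cgas KO (28.4% to 33.7%) and 23.9% in WT (21.6% to 26.4%), and without thinning 42.8% and 37.2%. The ratio of levels was 1.18 (1.11 to 1.25), under the threshold, in a class where 7.83% of genes were called higher and 7.68% lower, and after thinning it was 1.21, past it. Dendritic and myeloid markers summed to 182 CPM in Cgas KO and 261 CPM in WT in this class, with Siglech and Itgax at 0, and without barcodes rich in other-cell markers the ratio was again 1.18. In Cd4 only barcodes the thinned shares were 14.5% in Cgas KO and 13.5% in WT and the ratio was 1.07. Their unthinned shares, 22.8% (21.8% to 23.9%) in Cgas KO and 20.3% (19.2% to 21.4%) in WT, did not overlap either. There, 5.49% of genes were called higher and 5.02% lower. Ikzf2 in Nr4a1/Egr-high barcodes had a ratio of 1.06 (1.01 to 1.12), beside 7.08% of genes called higher and 7.69% lower.

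**Figure D3:**
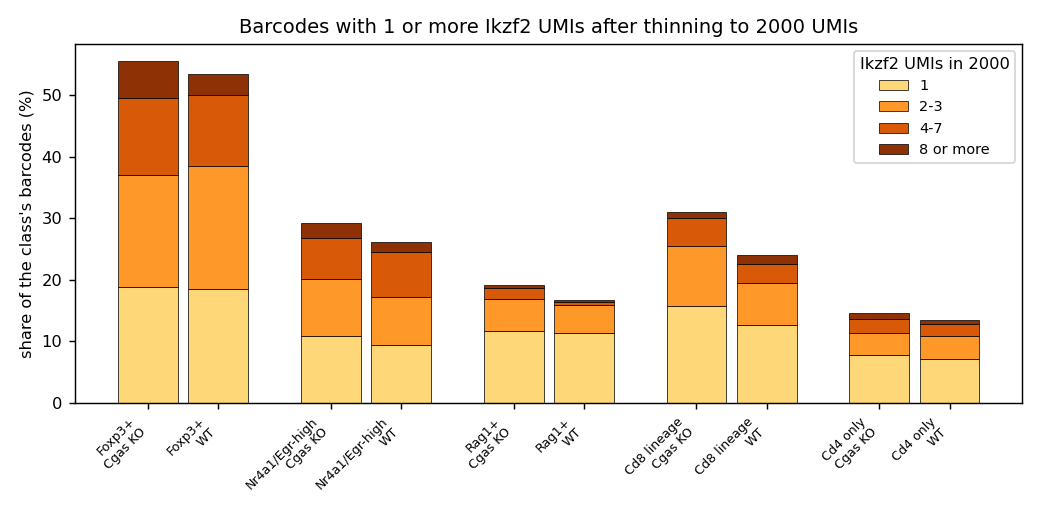
Share of barcodes (%, vertical axis) with 1, 2 to 3, 4 to 7 or 8 or more Ikzf2 UMIs after thinning to 2000 UMIs, stacked for each class, Cgas KO left of WT. Foxp3+ barcodes reach 55.6% and 53.5%, and in Cd8 lineage barcodes the Cgas KO bar (31.0%) stands above the WT bar (23.9%).

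The other members gave no ratio between genotypes past the threshold with an interval that excluded 1. Ikzf1 in Rag1+ barcodes was at 535 CPM in Cgas KO and 614 CPM in WT, a ratio of 0.871 (0.812 to 0.936), and in Nr4a1/Egr-high barcodes at 681 and 634 CPM, a ratio of 1.07 (1.03 to 1.12). Ikzf3 was within 1.05-fold in each of the 5 classes, and Ikzf4 ratios ran between 0.878 in Cd4 only barcodes and 1.13 in Rag1+ barcodes. Ikzf5 in Foxp3+ barcodes rested on 21 UMIs in Cgas KO and 28 in WT, under the minimum, and its ratio of 1.22 (0.659 to 2.23) cannot be told from 1 at this depth.

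Within Cd4 only barcodes, Ikzf3 and Ikzf4 were higher in the more mature cells. Mature barcodes had a UMI of S1pr1, the receptor used to leave the thymus, and none of Itm2a, and numbered 554 in Cgas KO and 487 in WT. Semi-mature barcodes had an Itm2a UMI and none of S1pr1, and numbered 3140 and 2760. Of the 5 members, 2 were at least 1.5-fold higher in mature barcodes in both libraries and 0 lower, beside 4.76% of genes higher and 9.02% lower. Ikzf3 stood at 222 CPM in Cgas KO and 241 CPM in WT in mature barcodes, against 139 and 142 CPM in semi-mature ones, ratios of 1.60 and 1.70. Foxp3+ barcodes, at 298 and 297 CPM of Ikzf3, also had more S1pr1 than Cd4 only barcodes, ratios of 1.75 in Cgas KO and 1.80 in WT. They had less Itm2a, ratios of 0.531 and 0.506. The part of maturation in the Foxp3+ level of Ikzf3 was not tested. Ikzf4 stood at 37.1 CPM in Cgas KO and 36.8 CPM in WT in mature barcodes, against 18.5 and 21.1 CPM, ratios of 2.01 and 1.75. Ikzf1 was 1.12-fold higher in Cgas KO and 1.14-fold higher in WT, under the threshold.

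Ikzf2 gave different ratios along this step in the 2 libraries. Its ratio of mature to semi-mature barcodes was 0.899 (0.803 to 1.004) in Cgas KO, with an interval that included 1, and 1.46 (1.32 to 1.60) in WT, under the threshold. Mature barcodes held 150.2 CPM in Cgas KO and 228 CPM in WT, a ratio of 0.657 (0.573 to 0.754), where 11.9% of genes were called higher and 10.5% lower. The thinned share of mature barcodes with an Ikzf2 UMI was nevertheless 13.2% in Cgas KO and 13.1% in WT. The 10 barcodes with the most Ikzf2 UMIs held 37.1% of the class's Ikzf2 UMIs in Cgas KO and 48.0% in WT, and without them the ratio of Cgas KO to WT was 0.792. The most Ikzf2 UMIs in a single mature barcode were 34 in Cgas KO and 48 in WT. In semi-mature barcodes the ratio was 1.07 (1.01 to 1.12), beside 5.67% of genes called higher and 5.39% lower.

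**Figure D4:**
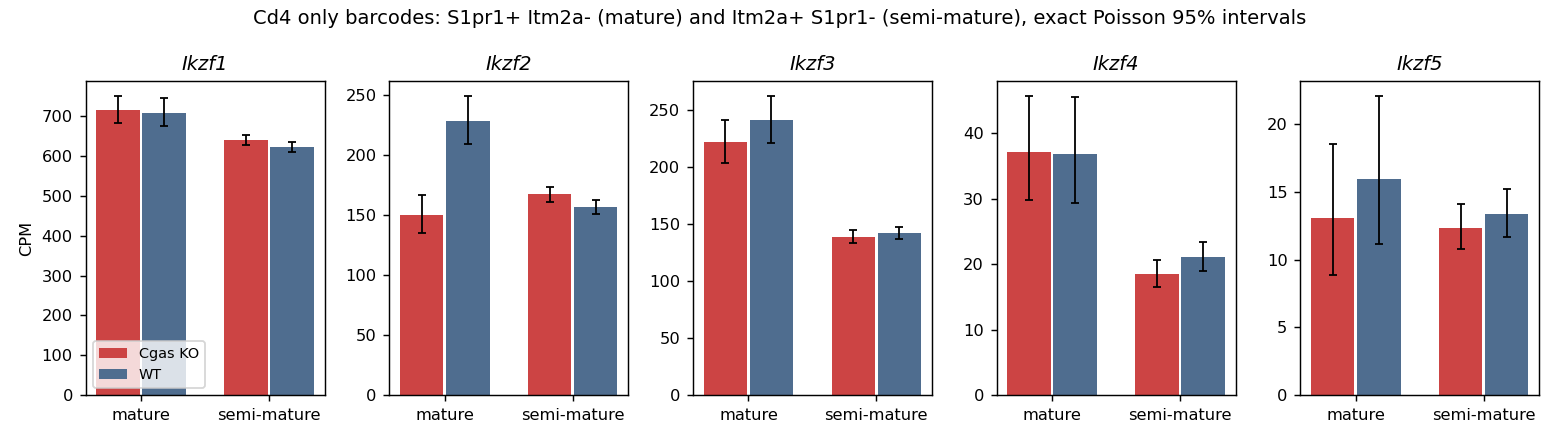
Level of each member (CPM, vertical axis from 0) in mature and semi-mature Cd4 only barcodes, Cgas KO left of WT, with exact Poisson 95% intervals. Ikzf3 and Ikzf4 are higher in mature barcodes of both libraries, and mature Ikzf2 is 150.2 CPM in Cgas KO and 228 CPM in WT.

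Ikzf2 was found in the same barcodes as Tnfrsf9 (4-1BB, a costimulatory receptor induced by T cell receptor signals), Foxp3 and Ikzf4 more often than in others. Over all kept barcodes after thinning, an Ikzf2 UMI was seen in 2763 of 14381 in Cgas KO and 2371 of 12929 in WT. Tnfrsf9 was seen in 30.1% of the Ikzf2-positive barcodes in Cgas KO and 31.5% in WT, against 3.75% and 3.89% of the Ikzf2-negative ones, odds ratios of 11.03 and 11.4. Foxp3 was seen in 4.52% of Ikzf2-positive barcodes in Cgas KO and 7.17% in WT, against 0.749% and 1.01% of the negative ones, odds ratios of 6.28 and 7.54. For Ikzf4 the shares were 10.7% in Cgas KO and 11.3% in WT, against 3.88% and 4.17%, odds ratios of 2.98 and 2.92. Without thinning the odds ratios were 9.36 and 10.5 for Tnfrsf9, 6.25 and 6.23 for Foxp3, and 3.04 and 3.17 for Ikzf4.

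An odds ratio with Ikzf2 of at least 2 in both libraries was found for 1.28% of the 10739 genes tested, and it was reached by all 3 partners and by Ikzf3. Ranked by the lower of the 2 libraries, 5 genes stood above Tnfrsf9, 17 above Foxp3, 57 above Ikzf4 and 123 above Ikzf3, whose odds ratios were 2.18 in Cgas KO and 2.11 in WT. Ikzf1 (0.879 and 0.909) and Ikzf5 (0.977 and 1.34) were not among them. Barcodes of 1 library share its depth and free RNA, and free RNA held Tnfrsf9 at 67.6 CPM in Cgas KO and 76.4 CPM in WT and Foxp3 at 11.7 and 14.1 CPM.

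The associations were also present inside single classes, but not in every one. In Rag1+ barcodes of Cgas KO, Ikzf4 was seen in 1.12% of Ikzf2-positive barcodes against 1.86% of the negative ones, an odds ratio of 0.599. Only 1 barcode there had both, and in WT the shares were 4.71% and 0.937%, from 4 such barcodes. In Cd4 only barcodes, Tnfrsf9 was seen in 30.3% of Ikzf2-positive barcodes in Cgas KO and 32.0% in WT, against 3.90% and 3.82% of the negative ones. In Cd8 lineage barcodes the shares were 21.1% in Cgas KO and 26.8% in WT, against 2.61% and 3.13%. In Foxp3+ barcodes the odds ratio was smaller, 3.71 in Cgas KO and 4.73 in WT. Ikzf4 went with Ikzf2 within Foxp3+ barcodes too, seen in 24.3% of Ikzf2-positive barcodes in Cgas KO and 24.4% in WT, against 13.1% and 13.0% of the negative ones. The intervals of these Ikzf4 shares overlapped in Cgas KO but not in WT. For Ikzf4 they also overlapped in Nr4a1/Egr-high barcodes of WT and in Cd8 lineage barcodes of both libraries. Ikzf1 ran the other way in Foxp3+ barcodes, seen in 56.7% of Ikzf2-positive barcodes in Cgas KO and 51.6% in WT, against 66.7% and 64.0% of the negative ones. The intervals overlapped in both libraries. Without thinning the Ikzf1 shares were 80.7% in Cgas KO and 83.1% in WT, against 90.4% and 85.4%. Read the other way, Ikzf2 was seen in 65.6% of Tnfrsf9-positive barcodes in Cgas KO and 64.5% in WT, in 59.0% and 61.4% of Foxp3-positive ones, and in 39.7% and 37.8% of Ikzf4-positive ones.

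Over all kept barcodes, the shares with Tnfrsf9 and with Ikzf4 were larger where more Ikzf2 UMIs were counted. For Tnfrsf9 in Cgas KO it was 3.75% at 0 Ikzf2 UMIs, 14.3% at 1, 34.8% at 2 to 3, 54.5% at 4 to 7 and 54.7% at 8 or more. In WT it was 3.89%, 18.9%, 34.8%, 52.4% and 54.7% in the same bins. The last 2 bins had overlapping intervals in both libraries. Ikzf4 reached 22.6% of the 190 Cgas KO barcodes and 18.7% of the 139 WT barcodes with 8 or more Ikzf2 UMIs. Foxp3 was seen in 8.42% and 9.35% of them, with overlapping intervals across the bins from 2 Ikzf2 UMIs up, so most barcodes with many Ikzf2 UMIs showed no Foxp3 UMI at this depth. In the bins from 1 Ikzf2 UMI up, the Ikzf4 share did not rise in every class. In Cd4 only barcodes it was 7.71%, 9.52%, 18.8% and 22.2% in Cgas KO, and 10.2%, 11.1%, 20.8% and 24.3% in WT. In Foxp3+ barcodes it was 19.7%, 31.9%, 23.4% and 17.4% in Cgas KO, and 21.1%, 24.3%, 23.7% and 44.4% in WT, with overlapping intervals.

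**Figure D5:**
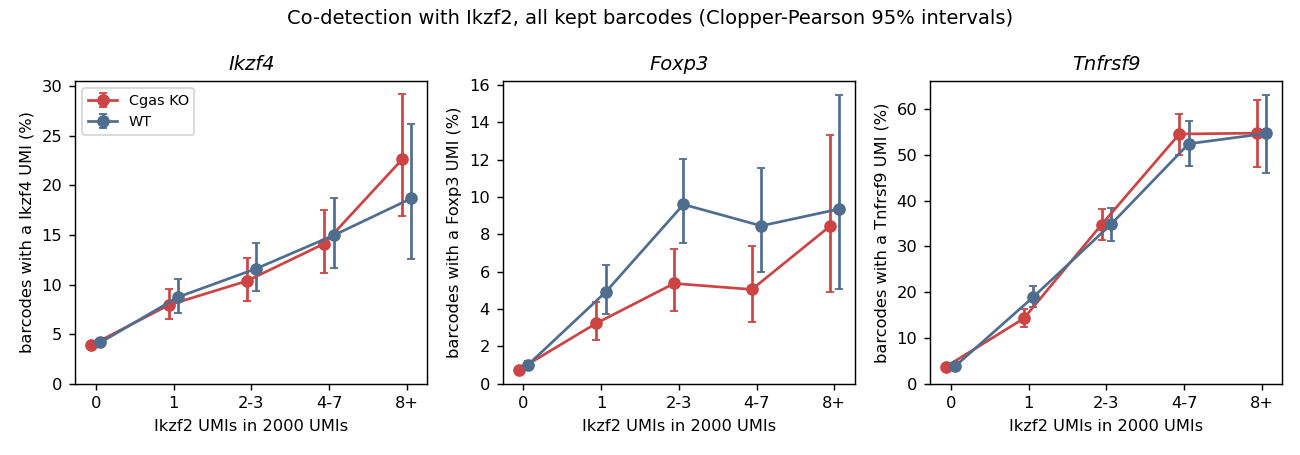
Share of kept barcodes (%, vertical axis) with a UMI of Ikzf4, Foxp3 or Tnfrsf9 by the number of Ikzf2 UMIs after thinning to 2000 UMIs, Cgas KO and WT, with Clopper-Pearson 95% intervals. Tnfrsf9 reaches 54.5% and 52.4% at 4 to 7 Ikzf2 UMIs, and Ikzf4 reaches 22.6% and 18.7% at 8 or more.

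The partners rarely occurred all together. Of the Ikzf2-positive barcodes, 60.4% in Cgas KO and 57.6% in WT showed none of the 3 partners, and 25.4% and 25.7% showed Tnfrsf9 alone. Foxp3 with neither Tnfrsf9 nor Ikzf4 was seen in 2.53% in Cgas KO and 3.92% in WT. All 3 partners were seen in 1 barcode in Cgas KO and 11 in WT. Several family members could be seen in a single Foxp3+ barcode. After thinning, 3 members were seen in 63 of the 378 Cgas KO and 92 of the 514 WT Foxp3+ barcodes, and 4 members in 22 and 21.

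Among Cd4 only barcodes, genes were ranked by the difference in share between Ikzf2-positive and Ikzf2-negative barcodes, as a description. Tnfrsf9 led, followed by Tnfrsf4 (OX40), at 39.6% of Ikzf2-positive barcodes in Cgas KO and 43.3% in WT against 17.4% and 17.7% of the negative ones. Arhgap20, a GTPase-activating protein gene, was seen in 23.0% in Cgas KO and 22.1% in WT against 3.47% and 3.20%. Ikzf3 ranked 6, at 40.7% in Cgas KO and 44.1% in WT against 24.8% and 25.8%, and the other 6 of the first 10 were Nrip1, Tnfrsf18 (GITR), Prkca, Cd5, Serp1 and Smc4. Less often seen with Ikzf2 were Thy1, a T cell surface glycoprotein, at 25.2% in Cgas KO and 24.0% in WT against 43.7% and 41.3%, and Il7r, the interleukin-7 receptor chain, at 26.2% and 24.3% against 40.4% and 42.6%.

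In Cd8 lineage barcodes the first gene was Cd5, a surface regulator of T cell receptor signalling, at 43.5% of Ikzf2-positive barcodes in Cgas KO and 39.1% in WT against 21.1% and 19.1% of the negative ones. Tnfrsf9 ranked 2 and Ikzf3 ranked 5, at 46.7% in Cgas KO and 39.1% in WT against 26.9% and 26.6%. Ifi27l2a, Smc4, Nfkbia, Cd6, H2-K1, Ly6e and Apobec3 made up the rest of the first 10. Runx1, a transcription factor of developing T cells, was less often seen with Ikzf2, at 29.8% in Cgas KO and 28.8% in WT against 51.3% and 45.4%, as were Thy1, Il7r and Ccr9.

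The genes with the profile most like each member over the 10 class-by-library sums (Pearson's r of log2(CPM + 10), 7360 genes compared) were named as a description, since these sums share 2 libraries and 5 classes. For Ikzf1 they included Arhgef6, Fermt3, Snhg16 and Cox10 (r between 0.930 and 0.952). For Ikzf2 they were Nt5dc3, Trpm1, Tmem123, Dennd5a and Arhgap20 (0.918 to 0.935), and for Ikzf3 they included Apobec3, Cd99l2, Selplg and Airn (0.938 to 0.975). Ikzf4 was most like Ecm1, Ms4a4c, Suox, Pou2f2 and Igf2r (0.981 to 0.987), of which Suox is its nearest coding neighbour in the RefSeq annotation of GRCm38.p6. Ikzf5 was most like Mapre1, Socs4, Seh1l, Smarcc1 and Cdc5l (0.970 to 0.982). Within the family, the profiles of Ikzf1 and Ikzf3 ran opposite (r = -0.907), and those of Ikzf2 and Ikzf4 had an r of 0.795 and a Spearman's rho of 0.6. Both were highest in Foxp3+ barcodes, but elsewhere they parted. Against Cd4 only barcodes, Ikzf4 ratios were 0.953 in Cgas KO and 0.880 in WT in Nr4a1/Egr-high barcodes, where Ikzf2 was at 2.49 and 2.51. In Cd8 lineage barcodes Ikzf4 was at 0.822 and 0.721, and Ikzf2 at 2.15 and 1.95.

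Partners and regulators of Ikaros proteins differed little between genotypes. Over all kept barcodes, 1 of 18 measured genes for NuRD and other co-repressor partners was at least 1.2-fold higher and 0 lower, with a median log2 ratio of -0.00, against 0.00 over all genes tested, of which 6.07% were higher and 5.83% lower. The gene was Mta1, a NuRD subunit, at 26.0 CPM in Cgas KO and 21.3 CPM in WT. Of 11 genes for enzymes that act on Ikaros proteins, such as Crbn, the cereblon gene, and casein kinase 2 subunits, 0 were higher and 0 lower. Of 12 measured thymocyte genes linked to Ikaros, 1 was higher and 1 lower, beside the same 6.07% and 5.83% of all genes. Hes1, a Notch target, stood at 3.11 CPM in Cgas KO and 2.13 CPM in WT, and Rag1 at 16.3 and 21.2 CPM.

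Of 20 genes known from agonist selection, the route by which thymocytes with strong self-reactive signals survive, 0 were higher and 4 lower over all kept barcodes, beside 6.07% and 5.83% of all genes, with a median log2 ratio of -0.05. The 4 were Foxp3 (8.48 CPM in Cgas KO and 13.1 CPM in WT), Il2ra, the interleukin-2 receptor alpha chain (14.8 and 19.1 CPM), Izumo1r, folate receptor 4 (178 and 224 CPM), and Lag3, an inhibitory receptor (0.688 and 0.960 CPM), whose interval included 1. Foxp3+ barcodes were 2.63% of those kept in Cgas KO and 3.98% in WT, and the part of this in these levels was not tested. Within Cd8 lineage barcodes the same list gave 5 of 17 higher and 0 lower, with a median of 0.20, against 7.83% higher, 7.68% lower and a median of -0.00 over all genes tested there. Ctla4 stood at 26.9 CPM in Cgas KO and 16.8 CPM in WT in that class, Nr4a3 at 36.7 and 27.4 CPM, Gadd45b at 44.8 and 35.2 CPM, and Bcl2l11, a pro-apoptotic gene, at 112 and 89.0 CPM. Tnfrsf9, also on the list, went the other way there without passing the threshold. It stood at 84.7 CPM in Cgas KO and 97.7 CPM in WT, a ratio of 0.867 (0.770 to 0.975). Of 6 measured Ikaros-linked genes in Cd8 lineage barcodes, 0 were higher and 2 lower, beside the same shares of all genes. Of these, Notch1 stood at 30.9 CPM in Cgas KO and 38.2 CPM in WT, and Dtx1, a Notch target, stood at 24.2 CPM in Cgas KO and 46.1 CPM in WT. In Foxp3+ barcodes 3 of 18 agonist-selection genes were higher and 0 lower, beside 9.76% and 10.9% of all genes, with a median of 0.08. They were Tnfrsf4 (519 CPM in Cgas KO and 417 CPM in WT), Nr4a1 (374 and 288 CPM) and Nr4a3 (63.5 and 42.0 CPM). Il2ra, lower over all kept barcodes, had a ratio of 1.198 (1.06 to 1.35) in Foxp3+ barcodes, short of the threshold. Foxp3, which defines the class, was at 1.06 (0.960 to 1.17), and Izumo1r at 0.913 (0.829 to 1.01). Egr2, which is on the list but under the UMI minimum in this class, stood at 9.55 CPM in Cgas KO and 18.8 CPM in WT, a ratio of 0.509 (0.291 to 0.851). Egr1 and Egr3, which are not on the list, had ratios of 0.766 (0.617 to 0.948) and 0.271 (0.0512 to 0.929), the second from 3 UMIs in Cgas KO and 18 in WT.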

How the data were processed

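The authors deposited UMI counts per gene and barcode as unfiltered matrices. Per the file headers the software was Cell Ranger 8.0.1. The mm10 build, Seurat 5.1.0 and an earlier Cell Ranger (7.0) stand in the submitters' processing notes, a conflict that could not be settled, and coordinates are therefore left out. The kit read 3' ends per the labels' protocols, but TCR contigs were deposited for the same barcodes. Which end of the RNA was read could not be settled here. The deposited TCR contig tables, with their UMI counts, served only to count beta chains. The libraries held 87310091 (Cgas KO) and 84763106 (WT) UMIs.

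Barcodes were filtered and classed as described above. No doublet caller was run: barcodes with at least 2 productive beta chains were left out as an alternative. UMIs were summed per class and library and divided by the class total (CPM), with exact Poisson, conditional binomial and Clopper-Pearson intervals (scipy 1.17.1 with numpy 2.4.6 and pandas 2.3.3 under Python 3.11.15), a procedure tested on simulated data. PCR duplicates are removed by UMI, and the intervals cover counting error only. For shares, each barcode was thinned at random to 2000 UMIs (seed 1). Calls used genes with at least 100 UMIs. Log2 ratios of lists had 1 CPM added. Alternative scalings were TMM (edgeR 4.0.16) and median-of-ratios factors (DESeq2 1.42.0) in R 4.3.3.

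The text names the members, class genes, partners, up to 4 members of each list farthest from a ratio of 1, the 5 genes most like each member (some are not reported here), and the 10 genes differing most in share with Ikzf2. Members, lists and rules were chosen with earlier results of these data known.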

Additional observations from a re-analysis of the deposited data

Results flagged for a closer look

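For Ikzf1 and Ikzf2 the ratio of Cgas KO to WT lay above 1 in some classes and below 1 in another, with counting intervals that excluded 1. The pair farthest apart is given for each. The Ikzf1 ratio was 1.07 in Nr4a1/Egr-high barcodes and 0.871 in Rag1+ barcodes, so that the first was 1.23 times the second. The Ikzf2 ratio was 1.45 in Rag1+ barcodes and 0.657 in mature Cd4 only barcodes, 2.21 times apart. With 1 library per genotype these differences were not tested.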

How the results depend on the processing

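Of 480 alternative values of the genotype ratios, 462 stayed within the counting interval of the value reported, 16 moved outside it and 2 reversed a ratio past 1.2-fold. Counting ratios of any size, 40 lay on the other side of 1. Both reversals concerned Ikzf5, at 1.87 in mature Cd4 only barcodes after thinning (0.819 as reported, from 31 and 36 UMIs) and at 0.916 in Foxp3+ barcodes without the 10 barcodes with the most UMIs of the gene, a setting chosen after seeing the data. Under that setting Ikzf2 was at 1.19 in Foxp3+ and 0.792 in mature Cd4 only barcodes. After thinning, the Ikzf2 ratio was 1.26 in Rag1+, 1.12 in Cd4 only, 1.08 in all kept and 1.16 in semi-mature Cd4 only barcodes. In Rag1+ barcodes it was 1.24 with stricter class minimums and 1.21 without barcodes with several beta chains. In Nr4a1/Egr-high barcodes it was 1.199 with the threshold at the 95th percentile and 1.15 at the 85th. With all UMIs in place of thinning, the odds ratio of Ikzf2 with Tnfrsf9 in Cgas KO was 9.36. Of 500 class ratios, 447 stayed within their intervals, 53 moved and 0 reversed a ratio past 1.5-fold, while 18 crossed 1. Among these, Ikzf2 in Rag1+ against Cd4 only barcodes in Cgas KO, 1.11 as reported, was 0.983 with TMM factors, 0.860 with stricter minimums and 0.944 without several beta chains. The count of all genes at least 1.2-fold higher or lower in all kept barcodes, 805 and 773, was 1802 and 1806 at a minimum of 20 UMIs and 4629 and 4728 at 1 UMI, and 1 co-repressor partner was lower at 20 UMIs. Ranked by Spearman's correlation, the 5 genes most like Ikzf4 shared 0 with those named, and those most like Ikzf2 and Ikzf5 shared 1 each. The cause of these changes was not tested. No paired analysis was possible because each genotype is 1 library. Depth limits Ikzf4 in Rag1+ barcodes and Ikzf5 in the 4 classes other than Cd4 only, where counts lay under 100 UMIs a library.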
